A study of Drosophila melanogaster with 7 samples.

Results

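Midguts of flies labelled Shn-RNAi were compared with control midguts across all genes of a deposited RNA sequencing table, and the differences are described here by gene family and pathway. The libraries labelled Shn-RNAi (genotype esgts> Shn-RNAi, n = 2) came from adult flies in which the esgts driver turns on an RNA interference construct directed at schnurri (shn), a zinc-finger cofactor that acts in BMP signalling. Control libraries (genotype esgts> w1118, n = 3) came from the same driver crossed to the w1118 strain. The table holds 7 libraries, and the remaining 2 (Shn-RNAi with the PucE69/+ allele) entered the model only to help estimate the spread. Flies of both groups carried the driver, were bred at 18 °C and were kept at 29 °C for 7 days, the temperature that turns the driver on. The driver is active in intestinal stem cells and their young daughters, whereas RNA was taken from whole dissected midguts, of which these cells are a small part. Whether a library is a separate animal, a pool or a repeat preparation is not stated in the labels, so p-values measure only the spread between these libraries. The controls come from a cross to another strain, so strain background and RNAi cannot be told apart. In whole-tissue RNA, fewer cells of a type and less RNA per cell cannot be told apart either.

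The adult fly midgut is a tube of absorptive and secretory enterocytes with scattered hormone-producing enteroendocrine cells, renewed by stem cells. Enterocytes secrete digestive enzymes, lysozymes and the chitin-lined peritrophic matrix, and run on mitochondrial respiration. Damaged or overgrowing guts are known to release cytokines of the JAK-STAT pathway, EGF-like ligands and BMP, Wnt and insulin modulators, which set how fast stem cells divide. The series title calls the Shn-RNAi group tumor.

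Levels are CPM, library-size-scaled counts after TMM normalization, and a gene is called when its edgeR quasi-likelihood p, adjusted by Benjamini and Hochberg over all 9076 genes tested, is under 0.05. Differences are log2 of Shn-RNAi over control. The targeted gene shn stood at 68.6 and 54.1 CPM in libraries labelled Shn-RNAi, against 42.5, 47.4 and 42.4 CPM in control (log2 difference 0.48, SE 0.15, adjusted p = 0.091), so its transcript does not check the RNAi label, and each direction given here refers to libraries as labelled. The JNK phosphatase gene puc (0.38, adjusted p = 0.13) and the stem-cell genes esg (0.07, adjusted p = 0.88) and Dl (0.59, adjusted p = 0.4) were not called either. Of 13 progenitor markers tested, esg and Dl among them, 2 were called higher and 0 lower, against 6.06% and 3.56% of all genes tested. The difference was positive for 10 of the 13, with a median of 0.34, and a fit without control library 1 called 0. The 5 libraries held 14665728 to 18490676 counts each. Markers of trachea, hemocytes, germline, female tissues, Malpighian tubule and hindgut had 0 called members. At an unadjusted p under 0.05, 2 tubule and hindgut markers were higher, 1 tracheal marker was higher and 2 lower, and 1 female marker was lower; DESeq2 called 1 tubule or hindgut marker higher and 1 tracheal and 1 female marker lower, and limma-voom 1 tracheal marker higher. The tubule and hindgut markers summed to 160.0 and 92.9 CPM in libraries labelled Shn-RNAi, against 95.7, 88.1 and 77.6 CPM in control. The tracheal markers summed to 17.6 and 20.8 CPM in libraries labelled Shn-RNAi, against 17, 53.2 and 25.2 CPM in control, with control library 2 highest. Of 3 tested fat body markers 1 was higher, the storage protein gene Lsp1gamma (1.77, adjusted p = 0.015), while the summed fat body markers overlapped between the groups.

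In all, 550 genes were higher (6.06% of those tested) and 323 (3.56%) were lower in the Shn-RNAi-labelled libraries, together 9.62%. The higher genes included 176 that differed at least 4-fold and 51 at least 16-fold, and the lower genes 36 and 9. In all 550 higher and all 323 lower genes the groups did not overlap, so a lack of overlap adds nothing to a call. Over all genes tested it held for 22.1% with Shn-RNAi higher and 21.2% with control higher. Over the 5 major chromosome arms the share higher ran from 5.09% on X to 7.63% on 2R, and the share lower from 2.92% on 3L to 4.29% on 3R. By mean level, 9.52% of genes over 1000 CPM were higher and 6.8% lower, with 6.58% and 10.3% among genes of 100 to 1000 CPM and 6.18% and 1.59% among genes of 1 to 10 CPM. Calls also moved with transcript length: 9.36% of the 2265 genes with the longest transcripts were higher and 0.53% lower, against 5.03% and 5.69% of the 2267 with the shortest. A fit with the length trend of each library taken out called 734 genes higher and 476 lower. The libraries labelled Shn-RNAi were uneven. Of the 550 higher genes, 74 differed at least 2-fold between these libraries, and 71 of those were higher in library 2. Each call was repeated with each of the 7 libraries left out in turn, and 175 of the higher and 50 of the lower genes were called in all 7 of these leave-one-out fits. Omitting control library 1 left 221 higher and 64 lower genes, and omitting control library 3 left 278 and 92. Omitting Shn-RNAi library 2 left 300 and 154, and omitting puc-carrying library 1 or 2 left 312 and 158 or 314 and 159.

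**Figure D1:**
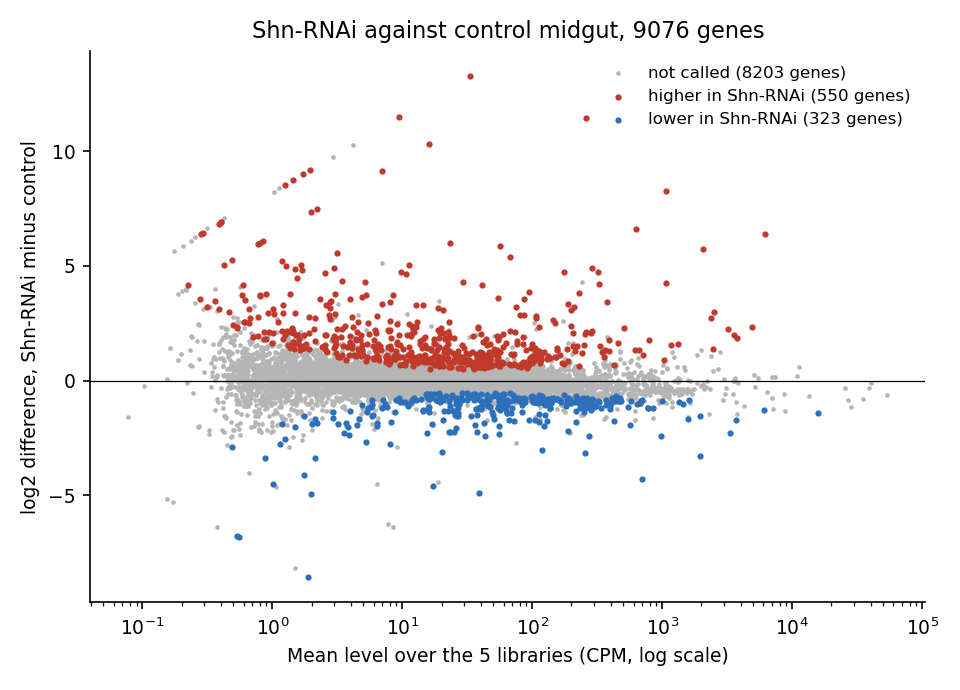
Mean level over the 5 libraries compared (CPM, log axis) against the log2 difference of Shn-RNAi minus control, 1 point per gene for the 9076 genes tested. Red points are the 550 genes called higher, blue points the 323 called lower, and grey points the genes not called; the red points reach much larger differences than the blue ones.

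Read by list, the calls fell on particular families. Shares above the background of 6.06% higher were seen in adhesion, digestive carbohydrate and chitin lists and in part of the signalling lists. The Notch, IMD, Hedgehog, juvenile hormone and circadian clock lists were not above it. Shares above 3.56% lower were seen in respiratory chain, antioxidant, metal-handling and Jonah protease lists. Proteasome, endoplasmic reticulum chaperone, vesicle coat, vacuolar sorting, aminoacyl-tRNA synthetase, apoptosis and Hedgehog lists had 0 members called in either direction. At an unadjusted p under 0.05 the proteasome, chaperone and vesicle coat lists had 0 members and the vacuolar sorting list 1 higher, while the synthetases had 2 higher and 4 lower, the Hedgehog list 1 and 1, and the 16 apoptosis genes 6 and 2. Of the apoptosis genes DESeq2 called 2 higher and 1 lower and the fit without the length trend 3 and 1; their groups did not overlap, with Shn-RNAi higher, for 9, against 22.1% of all genes tested. DESeq2 and limma-voom called 0 members of the other 6 lists. Each list is described below by how many members were called, its median log2 difference (0.03 over all genes tested) and its leading genes. Counts of called members are to be read against the 6.06% higher and 3.56% lower of all genes tested.

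**Figure D2:**
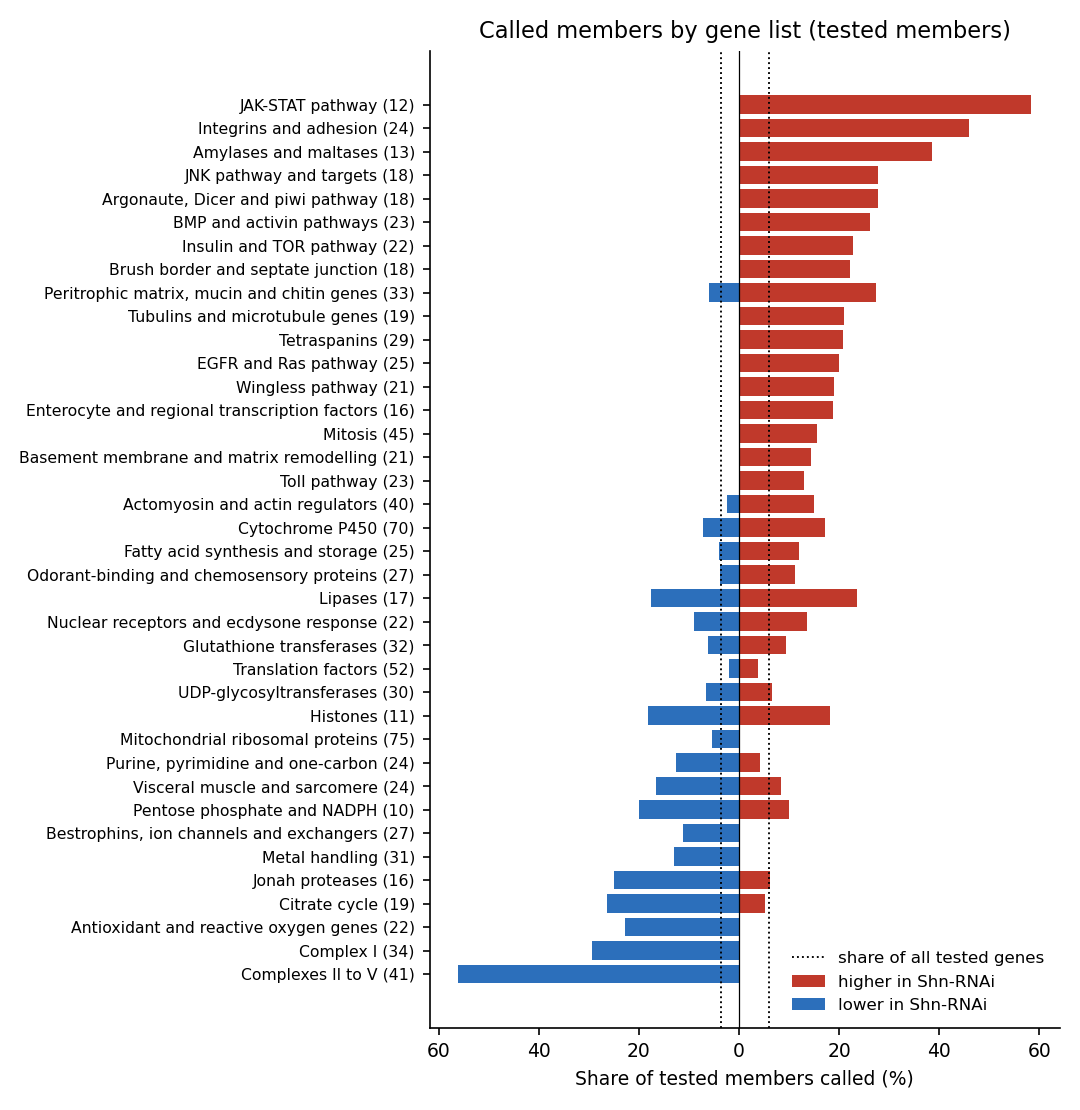
Share of tested members of each gene list called higher (red, to the right) or lower (blue, to the left) in the libraries labelled Shn-RNAi, for lists with at least 10 tested and at least 3 called members. Numbers in brackets are tested members, and dotted lines are the shares over all tested genes, 6.06% higher and 3.56% lower; the JAK-STAT list reaches farthest right and complexes II to V farthest left.

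Of 5 tested Toll receptor genes 2 were higher in the libraries labelled Shn-RNAi and 0 lower, and a family of stress peptides was higher as well. Toll receptors are cell-surface leucine-rich-repeat proteins known from immunity and from tissue patterning. The receptor gene 18w stood at 10.9 and 12.2 CPM in libraries labelled Shn-RNAi, against 2.58, 2.32 and 3.27 CPM in control (log2 difference 2.09, SE 0.21, adjusted p = 0.0015). Tollo, another receptor of the family, had 7.06 and 4.26 CPM in the Shn-RNAi-labelled libraries and 0.788, 0.885 and 0.637 CPM in control (log2 difference 2.86, SE 0.32, adjusted p = 0.0025). With the ligand gene spz (2.27, adjusted p = 0.0036) these were the 3 members called higher of 23 in the Toll list, and 0 were lower. The receptor genes Tl (0.46, adjusted p = 0.57), Toll-7 (0.62, adjusted p = 0.53) and Toll-9 (-0.70, adjusted p = 0.27) were not called. The median of the list was 0.35, ran from 0.07 without Shn-RNAi library 2 to 0.38 without control library 2, and was 0.19 with the length trend taken out. 18w, Tollo and spz were each called in all 7 leave-one-out fits.

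The Turandot genes encode small secreted peptides that respond to stress and to JAK-STAT activity. All 4 tested Turandot genes were higher. TotM had 15.7 and 37.9 CPM in libraries labelled Shn-RNAi, against 1.5, 0.498 and 0.398 CPM in control (log2 difference 5.06, SE 0.58, adjusted p = 0.0027). TotZ had 0 counts in all 3 control libraries and 1.79 and 7.85 CPM in libraries labelled Shn-RNAi, at least 65.6-fold above a floor of 3 counts over the 3 control libraries (adjusted p = 0.023). Both genes were higher in library 2 than in library 1. TotM was called in all 7 leave-one-out fits, and its log2 difference ran from 4.30 without Shn-RNAi library 2 to 5.86 without control library 1. TotZ was called in 4 (highest adjusted p = 0.079, without Shn-RNAi library 2).

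Immune effectors moved in part only. Of 12 tested antimicrobial peptide genes 2 were higher and 0 lower (median -0.03), both of the Drosomycin-like group of antifungal peptides. Drsl3 stood at 83.9 and 239 CPM in libraries labelled Shn-RNAi, against 5.01, 4.87 and 1.27 CPM in control (log2 difference 5.41, SE 0.59, adjusted p = 0.0022), and Drsl2 at 14.5 and 98.6 CPM in the Shn-RNAi-labelled libraries and 0.716, 1.33 and 0.478 CPM in control (log2 difference 5.99, SE 0.82, adjusted p = 0.0056). Drosomycin itself, Drs, was at 0.112 and 0.22 CPM in the Shn-RNAi-labelled libraries and 40.9, 1.16 and 0 CPM in control and was not called. In the IMD pathway, the gut's main response to bacterial cell wall, 1 of 18 genes was higher, the kinase subunit gene IKKbeta (0.88, adjusted p = 0.012). This IMD share is not above that of all genes tested, of which 6.06% were called higher and 3.56% lower. The IMD transcription factor gene Rel had 90.8 and 128 CPM in the Shn-RNAi-labelled libraries and 80.1, 77.7 and 57.2 CPM in control (0.61, adjusted p = 0.13), and the bacterial-wall receptor gene PGRP-LC 25.2 and 36.4 CPM in the Shn-RNAi-labelled libraries and 27.6, 30.2 and 30.4 CPM in control (0.07, adjusted p = 0.87). Among thioester proteins and Nimrod-type receptors 3 of 7 were higher and 0 lower: Tep2 (1.58, adjusted p = 0.006) and Tep4 (1.42, adjusted p = 0.011), complement-like secreted proteins, and drpr (0.81, adjusted p = 0.031), a receptor for dying cells. The hemocyte markers summed to 67.9 and 52.7 CPM in libraries labelled Shn-RNAi, against 48.6, 57.5 and 56.5 CPM in control, with 0 of 5 called. Drsl2, Drsl3 and Tep2 were called in all 7 leave-one-out fits. Tep4 kept its call in 6 of them (highest adjusted p = 0.055, without Shn-RNAi library 2), IKKbeta in 5 (0.068, without control library 1) and drpr in 2 (0.12, without control library 1). Drsl2 had a log2 difference of 4.05 without Shn-RNAi library 2 or 6.79 without Shn-RNAi library 1 and Drsl3 of 4.46 without Shn-RNAi library 2.

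Within the cytokine and growth-factor lists, inhibitors and feedback genes were called beside ligands. The JAK-STAT list had 7 higher and 0 lower of 12 tested (median 0.85), and 4 to 6 were higher in the leave-one-out fits, fewest without control library 1. Its feedback inhibitor Socs36E stood at 367 and 457 CPM in libraries labelled Shn-RNAi, against 46.1, 47.1 and 27.3 CPM in control, and Ptp61F (0.72, adjusted p = 0.024), a phosphatase that restrains the pathway, and Stat92E (0.84, adjusted p = 0.046), its transcription factor, were also higher; the kinase gene hop had 23.6 and 17.3 CPM in the Shn-RNAi-labelled libraries and 16.8, 19.7 and 14.2 CPM in control (0.28, adjusted p = 0.41). In the BMP and activin list 6 of 23 were higher and 0 lower, with 3 to 6 higher in the leave-one-out fits, fewest without control library 1. The list's median, 0.33, ran from 0.05 without Shn-RNAi library 1 to 0.57 without Shn-RNAi library 2 and was 0.12 with the length trend taken out. The ligand gene gbb was called higher, as were Mad, brk and cv-2. The BMP-binding inhibitor gene sog had 15 and 14.5 CPM in the Shn-RNAi-labelled libraries and 2.58, 3.93 and 2.87 CPM in control (log2 difference 2.22, SE 0.25, adjusted p = 0.0026), while the receptor genes tkv (0.33, adjusted p = 0.45), put (-0.10, adjusted p = 0.86) and sax (0.16, adjusted p = 0.55) and the ligand gene dpp (0.59, adjusted p = 0.1) were not called. Among EGFR and Ras genes, with 5 higher and 0 lower of 25 tested, the ligand-trafficking gene S (Star) rose (0.98, adjusted p = 0.019), while the receptor Egfr (0.26, adjusted p = 0.61) and the ligands spi (0.42, adjusted p = 0.17) and Krn (0.31, adjusted p = 0.24) were not called. Socs36E and sog were called in all 7 leave-one-out fits. S kept its call in 4 of them (highest adjusted p = 0.07, without Shn-RNAi library 2), Ptp61F in 2 (0.089, without control library 1) and Stat92E in 1 (0.16, without Shn-RNAi library 1). Ptp61F (0.11) and S (0.065) were not called after removal of the length trend (adjusted p in brackets).

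In the JNK list, with a median of 0.23 (0.14 with the length trend taken out) and 5 of 18 higher (2 to 5 in the leave-one-out fits, fewest without control library 1), the ETS transcription factor gene Ets21C, a known JNK target in the gut, stood at 11.3 and 23.4 CPM in libraries labelled Shn-RNAi, against 4.58, 4.81 and 3.42 CPM in control (log2 difference 2.00, SE 0.31, adjusted p = 0.0082). The kinase genes hep (0.49, adjusted p = 0.13) and bsk (0.02, adjusted p = 0.93) and the TNF ligand egr, at 14.6 and 15.1 CPM in the Shn-RNAi-labelled libraries and 19.6, 22.1 and 20 CPM in control (-0.47, adjusted p = 0.062), were not called. In the PDGF and VEGF receptor list 2 of 4 genes were higher, Pvf2 and the receptor Pvr (0.75, adjusted p = 0.039); the ligand Pvf1 had 38.1 and 43.1 CPM in the Shn-RNAi-labelled libraries and 19, 23.4 and 8.52 CPM in control (1.25, adjusted p = 0.06). The FGF ligand gene pyr was higher (0.97, adjusted p = 0.015), the only call among 6 FGF genes. Of 18 Notch genes 1 was higher, fng (1.53, adjusted p = 0.036), a glycosyltransferase that modifies the receptor; N itself had 8.57 and 6.02 CPM in the Shn-RNAi-labelled libraries and 3.51, 3.21 and 1.19 CPM in control (1.45, adjusted p = 0.061). Of 16 Hippo genes kibra alone was called (0.65, adjusted p = 0.033), with yki at -0.04, adjusted p = 0.9, and none of 10 Hedgehog genes was, with the ligand hh at -0.67, adjusted p = 0.1. Over all genes tested 6.06% were called higher and 3.56% lower, and the Notch and Hippo counts lie near the first share. Ets21C was called in all 7 leave-one-out fits. pyr kept its call in 5 of them (highest adjusted p = 0.057, without Shn-RNAi library 2), Pvf2 in 2 (0.076, without Shn-RNAi library 2) and fng in 2 (0.13, without Shn-RNAi library 2). Pvr kept its call in 1 of the fits (highest adjusted p = 0.15, without control library 1) and kibra in 0 (0.15, without control library 1). Ets21C had a log2 difference of 1.39 without Shn-RNAi library 2. kibra (0.092) was not called after removal of the length trend (adjusted p in brackets).

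**Figure D3:**
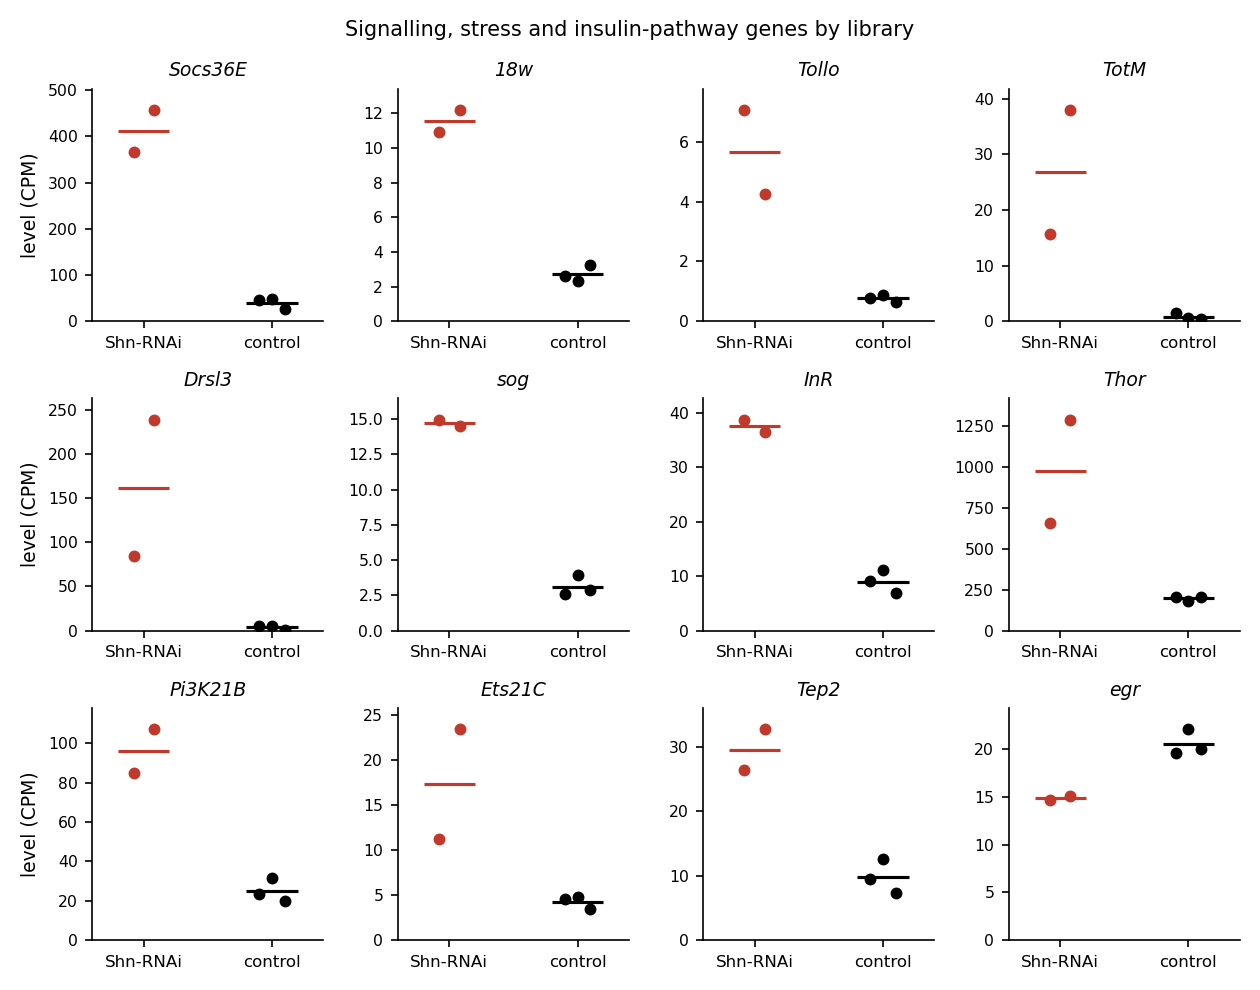
Levels (CPM, linear axis from 0) of 12 signalling, stress and insulin-pathway genes in the 2 libraries labelled Shn-RNAi (red) and the 3 control libraries (black), 1 point per library with the group mean as a bar. The groups do not overlap for any of the 12 genes, which also holds for every called gene. Of the 12 genes 11 are called higher, and egr, with both libraries labelled Shn-RNAi below every control library, is not called.

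Insulin and TOR genes had 5 higher and 0 lower of 22 tested. Their median, 0.40, ran from 0.10 without Shn-RNAi library 1 to 0.55 without Shn-RNAi library 2 and was 0.14 with the length trend taken out, while 4 to 5 members were called in the leave-one-out fits. Insulin-like peptides bind the receptor InR and act through phosphoinositide 3-kinase and Akt, and the transcription factor Foxo, active when insulin signalling is low, is known to raise InR and Thor. InR stood at 38.8 and 36.5 CPM in libraries labelled Shn-RNAi, against 9.1, 11.1 and 6.85 CPM in control (log2 difference 2.06, SE 0.23, adjusted p = 0.0025). Thor, which encodes the translation inhibitor 4E-BP, stood at 654 and 1287 CPM in the Shn-RNAi-labelled libraries and 206, 180.4 and 207 CPM in control (log2 difference 2.29, SE 0.29, adjusted p = 0.0039). Pi3K21B, the regulatory subunit of the kinase, had 85.1 and 107 CPM in the Shn-RNAi-labelled libraries and 23.5, 31.7 and 19.7 CPM in control (log2 difference 1.94, SE 0.25, adjusted p = 0.004). ImpL2, a secreted binder of insulin-like peptides, was called higher as well (3.84). The catalytic subunit gene Pi3K92E was higher by less (0.58, adjusted p = 0.045). The genes foxo (0.45, adjusted p = 0.21), Tor (0.26, adjusted p = 0.43), S6k (-0.11, adjusted p = 0.69) and Ilp3 (0.14, adjusted p = 0.71) were not called. ImpL2, InR, Pi3K21B and Thor were called in all 7 leave-one-out fits. Pi3K92E kept its call in 0 of them (highest adjusted p = 0.16, without control library 1). Pi3K92E (0.079) was not called after removal of the length trend (adjusted p in brackets).

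Nuclear receptor and ecdysone genes moved both ways, with 3 higher and 2 lower of 22 tested, and 0 to 2 higher and 0 to 2 lower in the leave-one-out fits, 0 of either without control library 1. ERR, a receptor that directs carbohydrate metabolism in larvae, was lower at 22.4 and 18.1 CPM in libraries labelled Shn-RNAi, against 36.4, 30.9 and 34.2 CPM in control (log2 difference -0.74, SE 0.16, adjusted p = 0.027). Hr96, a receptor for dietary lipids and toxins, was higher (0.91, adjusted p = 0.028), as were the ecdysone-response genes br (2.17, adjusted p = 0.039) and Eip78C (1.41, adjusted p = 0.04), while shd, which encodes the enzyme that makes active ecdysone, was lower (-2.67, adjusted p = 0.04996). Of 16 enterocyte and regional transcription factors 3 were higher and 0 lower: the POU genes pdm2, at 27.5 and 25.8 CPM in the Shn-RNAi-labelled libraries and 5.8, 7.97 and 7.8 CPM in control (log2 difference 1.89, SE 0.17, adjusted p = 0.001), and nub (0.93, adjusted p = 0.034), which marks enterocytes, and the zinc-finger gene drm, at 78.1 and 64.6 CPM in the Shn-RNAi-labelled libraries and 27.9, 33 and 28 CPM in control (log2 difference 1.26, SE 0.15, adjusted p = 0.0033). Of 11 enteroendocrine peptide genes only CCHa1 was called (1.60, adjusted p = 0.028), and Tk had 63.5 and 61.5 CPM in the Shn-RNAi-labelled libraries and 49.8, 51.8 and 54.4 CPM in control (0.27, adjusted p = 0.24). drm and pdm2 were called in all 7 leave-one-out fits. ERR kept its call in 2 of them (highest adjusted p = 0.13, without control library 1), Eip78C in 2 (0.12, without control library 3) and Hr96 in 2 (0.094, without control library 1). CCHa1 kept its call in 1 of the fits (highest adjusted p = 0.088, without control library 1), br in 1 (0.14, without Shn-RNAi library 1) and nub in 1 (0.12, without control library 1). shd kept its call in 1 of the fits (highest adjusted p = 0.16, without Shn-RNAi library 2). CCHa1 had a log2 difference of 0.82 without Shn-RNAi library 2, br of 2.84 without control library 2 and shd of -3.56 without Shn-RNAi library 1 or -2.04 without control library 3. Eip78C (0.062) was not called after removal of the length trend (adjusted p in brackets).

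Adhesion genes had one of the largest shares of calls among the lists, 11 higher and 0 lower of 24 tested (median 0.64). Integrins are paired alpha and beta receptors for the matrix, linked to actin by talin, vinculin and paxillin. The alpha subunit gene scb stood at 376 and 344 CPM in libraries labelled Shn-RNAi, against 128, 159 and 94.5 CPM in control (log2 difference 1.50, SE 0.23, adjusted p = 0.0089). The low-level alpha subunit gene ItgaPS5 had 2.86 and 3.3 CPM in the Shn-RNAi-labelled libraries and 0.0716, 0.166 and 0 CPM in control (log2 difference 5.00, SE 0.72, adjusted p = 0.0066). The alpha subunit mew (0.96, adjusted p = 0.019), the beta subunit Itgbn (0.77, adjusted p = 0.026), the talin gene rhea (1.16, adjusted p = 0.019), Vinc (0.72, adjusted p = 0.026), Pax (0.56, adjusted p = 0.046), the E-cadherin gene shg (0.89, adjusted p = 0.039) and the adhesion gene Nrg (1.44, adjusted p = 0.019) were also higher. Between 4 and 9 members were called in the leave-one-out fits, fewest without control library 1. ItgaPS5 and scb were called in all 7 leave-one-out fits. Nrg kept its call in 4 of them (highest adjusted p = 0.071, without Shn-RNAi library 1), Vinc in 3 (0.11, without control library 1) and mew in 3 (0.089, without control library 1). Itgbn kept its call in 2 of the fits (highest adjusted p = 0.11, without control library 1), rhea in 2 (0.084, without control library 1) and Pax in 1 (0.18, without control library 1). shg kept its call in 1 of the fits (highest adjusted p = 0.14, without control library 1). ItgaPS5 had a log2 difference of 6.05 without control library 2.

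Of 21 basement membrane and matrix-remodelling genes 3 were higher and 0 lower, and 1 to 3 were called in the leave-one-out fits, fewest without control library 1. The 3 were the metalloproteinase genes Mmp2, at 24.7 and 19.9 CPM in libraries labelled Shn-RNAi, against 4.73, 4.92 and 2.15 CPM in control, and AdamTS-A (1.05, adjusted p = 0.014), and Timp, at 19.6 and 32.3 CPM in the Shn-RNAi-labelled libraries and 11.5, 10.1 and 9.32 CPM in control (1.32, adjusted p = 0.02), an inhibitor of metalloproteinases. The other metalloproteinase gene Mmp1 had 133 and 91.9 CPM in the Shn-RNAi-labelled libraries and 78.7, 96.6 and 75.4 CPM in control (0.42, adjusted p = 0.22). The collagen IV genes Col4a1, at 13.7 and 5.65 CPM in the Shn-RNAi-labelled libraries and 3.65, 41.2 and 5.26 CPM in control, and vkg, at 10.6 and 5.8 CPM in the Shn-RNAi-labelled libraries and 2.58, 27.3 and 4.14 CPM in control, were high in control library 2, the library with the highest tracheal marker sum. Cuticle protein genes, which are made by epidermis and trachea, also set that library apart: the 87 in the table summed to 34.1 and 39.6 CPM in libraries labelled Shn-RNAi, against 33.3, 1081 and 40.5 CPM in control, and 0 of the 11 tested were called. The part of other tissue in this was not tested. Mmp2 was called in all 7 leave-one-out fits. AdamTS-A kept its call in 6 of them (highest adjusted p = 0.062, without control library 1) and Timp in 3 (0.08, without Shn-RNAi library 2). AdamTS-A (0.11) was not called after removal of the length trend (adjusted p in brackets).

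Called cytoskeletal genes were mostly higher. Actomyosin regulators had 6 higher and 1 lower of 40 tested, with 2 to 6 higher in the leave-one-out fits, fewest without control library 1. The cytoplasmic actin gene Act42A stood at 624 and 904 CPM in libraries labelled Shn-RNAi, against 272, 302 and 169 CPM in control (log2 difference 1.62, SE 0.27, adjusted p = 0.012), and ena, an actin polymerase of cell edges, at 28.1 and 30.5 CPM in the Shn-RNAi-labelled libraries and 9.67, 12.5 and 6.21 CPM in control (log2 difference 1.62, SE 0.30, adjusted p = 0.016). The myosin heavy chain gene zip (1.05, adjusted p = 0.022), its kinase Rok (1.05, adjusted p = 0.021) and the actin-nucleation regulator Abi (0.73, adjusted p = 0.038) were also higher. The tubulin isotype gene betaTub60D had 352 and 491 CPM in the Shn-RNAi-labelled libraries and 55, 68.8 and 23.4 CPM in control (log2 difference 3.10, SE 0.41, adjusted p = 0.0048) and led 4 higher of 19 microtubule genes, of which 1 to 2 were called in the leave-one-out fits. Of 18 brush border and septate junction genes 4 were higher and 0 lower, namely mesh (0.90, adjusted p = 0.024), Gli (0.85, adjusted p = 0.031), scrib (0.73, adjusted p = 0.033) and cora (0.77, adjusted p = 0.04), all parts of the occluding junctions or of the polarity system; 0 to 4 were called in the leave-one-out fits, 0 of them without control library 1. betaTub60D was called in all 7 leave-one-out fits. Act42A kept its call in 6 of them (highest adjusted p = 0.058, without Shn-RNAi library 2), ena in 5 (0.066, without Shn-RNAi library 2) and mesh in 4 (0.12, without control library 1). zip kept its call in 2 of the fits (highest adjusted p = 0.087, without control library 1), Abi in 1 (0.14, without control library 1) and Gli in 1 (0.12, without control library 1). Rok kept its call in 1 of the fits (highest adjusted p = 0.085, without control library 1), cora in 1 (0.16, without control library 1) and scrib in 1 (0.15, without control library 1). mesh (0.051) and scrib (0.13) were not called after removal of the length trend (adjusted p in brackets).

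Most muscle genes had a difference below 0, and of 24 tested 2 were higher and 4 lower. The difference was positive for 3 (median -0.40). The groups did not overlap for 2 with Shn-RNAi higher and 14 with control higher, against 22.1% and 21.2% of all genes tested. In the leave-one-out fits 1 to 2 were called higher and 2 to 4 lower, fewest without control library 1. Strn-Mlck, a giant myosin light chain kinase gene, was higher at 41.7 and 33 CPM in libraries labelled Shn-RNAi, against 9.02, 11.4 and 10.4 CPM in control (log2 difference 1.86, SE 0.16, adjusted p = 0.001), with Zasp52, while the sarcomeric genes TpnC47D, Act87E, Act57B and Mlc2 were lower. Tetraspanins, membrane proteins with 4 spans that organise surface complexes, had 6 higher and 0 lower of 29, and 4 to 9 in the leave-one-out fits. All 6 belonged to the tandem Tsp42E cluster on 2R, where 6 of 17 tested genes were higher (median 0.90), against 0 of 12 other tetraspanin genes tested (median 0.04). Tsp42Ei had 32.4 and 35.4 CPM in libraries labelled Shn-RNAi, against 9.53, 9.74 and 9 CPM in control (log2 difference 1.84, SE 0.13, adjusted p = 0.00047), and Tsp42Ea 65.1 and 124 CPM in the Shn-RNAi-labelled libraries and 25.4, 31.3 and 26.8 CPM in control (log2 difference 1.76, SE 0.26, adjusted p = 0.0068). The others were Tsp42Ef (1.25, adjusted p = 0.006), Tsp42Ee (1.22, adjusted p = 0.011), Tsp42Eb (1.77, adjusted p = 0.013) and Tsp42El (1.13, adjusted p = 0.032). Act87E, Strn-Mlck, TpnC47D, Tsp42Ea, Tsp42Ef and Tsp42Ei were called in all 7 leave-one-out fits. Tsp42Eb kept its call in 6 of them (highest adjusted p = 0.063, without Shn-RNAi library 2), Tsp42Ee in 6 (0.055, without control library 1) and Zasp52 in 6 (0.057, without control library 1). Act57B kept its call in 2 of the fits (highest adjusted p = 0.11, without control library 1), Tsp42El in 1 (0.11, without Shn-RNAi library 2) and Mlc2 in 0 (0.17, without control library 1). Zasp52 (0.054) was not called after removal of the length trend (adjusted p in brackets).

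Digestive genes differed by family. Called amylases, maltases and lysozymes were all higher, 4 of 5 called Jonah proteases were lower, and lipases went both ways. The 7 lysozyme genes, 6 of them higher, summed to 9560.2 and 35627 CPM in libraries labelled Shn-RNAi, against 586, 482 and 458 CPM in control; several are near-identical copies that may share reads, so the sum is firmer than any single gene. Between Shn-RNAi library 2 and library 1 their median difference was 1.90 on the log2 scale, and the count higher was 5 to 7 in the leave-one-out fits. Outside the closest copies, LysX stood at 354 and 480.1 CPM in libraries labelled Shn-RNAi, against 176, 133 and 115 CPM in control (log2 difference 1.56, SE 0.26, adjusted p = 0.011). LysX kept its call in 6 of the 7 leave-one-out fits (highest adjusted p = 0.056, without Shn-RNAi library 2).

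Amylases and maltases, which digest starch and malt sugars, had 5 higher and 0 lower of 13 tested (median 1.06). The alpha-glucosidase gene tobi, known to respond to insulin and to diet, stood at 502 and 841 CPM in libraries labelled Shn-RNAi, against 173, 161 and 251 CPM in control (log2 difference 1.78, SE 0.27, adjusted p = 0.0083). The maltase gene Mal-A8 had 311 and 769.8 CPM in the Shn-RNAi-labelled libraries and 160.1, 123 and 73.7 CPM in control (log2 difference 2.19, SE 0.45, adjusted p = 0.023), Mal-A6 was higher too (1.56, adjusted p = 0.03), and Mal-A1 had 2385 and 4454 CPM in the Shn-RNAi-labelled libraries and 1860.2, 1755 and 1292 CPM in control (1.06, adjusted p = 0.06). The near-identical amylase genes Amy-p (2.33, adjusted p = 0.012) and Amy-d (1.39, adjusted p = 0.045) may share reads. Every called member was higher in Shn-RNAi library 2 than in library 1, and 2 to 6 members were called in the leave-one-out fits, fewest without control library 2. The median ran from 0.44 without Shn-RNAi library 2 to 1.26 without Shn-RNAi library 1. Amy-p and tobi were called in all 7 leave-one-out fits. Mal-A8 kept its call in 2 of them (highest adjusted p = 0.1, without Shn-RNAi library 2), Amy-d in 1 (0.14, without control library 3) and Mal-A6 in 1 (0.097, without control library 3). Amy-d had a log2 difference of 0.60 without Shn-RNAi library 2, Amy-p of 1.39 without Shn-RNAi library 2 and Mal-A6 of 0.83 without Shn-RNAi library 2. Mal-A8 had a log2 difference of 1.39 without Shn-RNAi library 2.

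Several digestive protease genes fell. Of 16 Jonah genes, serine proteases of the chymotrypsin type, 4 were lower and 1 higher (median -1.18), and 1 to 5 were lower in the leave-one-out fits, fewest without Shn-RNAi library 2. Jon25Bii stood at 1122 and 883 CPM in libraries labelled Shn-RNAi, against 4615, 3835 and 5989.6 CPM in control (log2 difference -2.26, SE 0.32, adjusted p = 0.0064), and its neighbour Jon25Bi at 1762 and 1329.6 CPM in the Shn-RNAi-labelled libraries and 4736, 3953 and 6503 CPM in control (log2 difference -1.71, SE 0.28, adjusted p = 0.01). Jon99Ci (-1.21, adjusted p = 0.011) and Jon99Cii (-1.40, adjusted p = 0.034) fell too, whereas Jon66Cii was higher (1.13, adjusted p = 0.043). Of 11 trypsins 2 were lower, thetaTry, at 943 and 878 CPM in the Shn-RNAi-labelled libraries and 2655, 2186 and 3136 CPM in control (log2 difference -1.55, SE 0.22, adjusted p = 0.0067), and iotaTry (-1.21, adjusted p = 0.024). The abundant alphaTry (-0.10, adjusted p = 0.86), betaTry (-1.16, adjusted p = 0.054) and deltaTry (0.50, adjusted p = 0.56) were not called. Of their near-identical relatives, which may share reads, gammaTry was at 0 and 1127 CPM in the Shn-RNAi-labelled libraries and 19.4, 36.1 and 29.5 CPM in control and CG30025 at 121 and 1399 CPM in the Shn-RNAi-labelled libraries and 46.7, 13.5 and 24.4 CPM in control, a difference carried mainly by Shn-RNAi library 2. Of 6 alpha-mannosidases, which trim sugar chains in acidic compartments, LManIII and LManIV were lower (-2.04, adjusted p = 0.034, and -2.01, adjusted p = 0.031). Jon25Bii and thetaTry were called in all 7 leave-one-out fits. Jon25Bi kept its call in 6 of them (highest adjusted p = 0.055, without Shn-RNAi library 2), Jon99Ci in 5 (0.063, without control library 1) and Jon99Cii in 3 (0.13, without control library 1). iotaTry kept its call in 3 of the fits (highest adjusted p = 0.094, without Shn-RNAi library 2), Jon66Cii in 2 (0.12, without control library 3) and LManIV in 2 (0.11, without Shn-RNAi library 2). LManIII kept its call in 1 of the fits (highest adjusted p = 0.13, without Shn-RNAi library 2). LManIV had a log2 difference of -2.63 without Shn-RNAi library 1. Jon99Cii (0.06) and iotaTry (0.056) were not called after removal of the length trend (adjusted p in brackets).

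Neutral lipase genes moved in opposite directions, with 4 higher and 3 lower of 17 tested; 2 to 5 were higher in the leave-one-out fits, fewest without control library 1. CG6283 stood at 291 and 472 CPM in libraries labelled Shn-RNAi, against 92, 82.6 and 98.7 CPM in control (log2 difference 2.07, SE 0.24, adjusted p = 0.0027) and CG8093 at 147 and 291 CPM in the Shn-RNAi-labelled libraries and 38.5, 33.8 and 22 CPM in control (log2 difference 2.80, SE 0.36, adjusted p = 0.0045), while CG6295 was lower at 336 and 292 CPM in the Shn-RNAi-labelled libraries and 3152, 2815 and 3195 CPM in control (log2 difference -3.28, SE 0.22, adjusted p = 0.00047). Lip4 (0.95, adjusted p = 0.014) and Hsl (0.66, adjusted p = 0.022), the hormone-sensitive lipase gene, were higher, and CG6277 was lower (-1.68, adjusted p = 0.011). Peritrophic matrix, mucin and chitin genes were also divided, with 9 higher and 2 lower of 33 tested. Chitinases, which cut chitin, led the rise with 4 of 8 higher. Cht4 had 507 and 1008 CPM in the Shn-RNAi-labelled libraries and 48, 58.8 and 17 CPM in control (log2 difference 4.19, SE 0.51, adjusted p = 0.0034) and Cht9 618 and 1037 CPM in the Shn-RNAi-labelled libraries and 93, 90.1 and 48.4 CPM in control (log2 difference 3.42, SE 0.38, adjusted p = 0.0023), with Cht12 (4.92, adjusted p = 0.0022) and Cht10 (2.74, adjusted p = 0.0048) at lower levels. The mucin genes Muc14A (1.81, adjusted p = 0.0085), Muc68E (1.29, adjusted p = 0.01) and Muc18B (3.17, adjusted p = 0.011) were higher. The peritrophic matrix genes Peritrophin-15a, at 214 and 336 CPM in the Shn-RNAi-labelled libraries and 1473, 1218 and 1672 CPM in control (log2 difference -2.41, SE 0.28, adjusted p = 0.0029), and Peritrophin-15b (-1.76, adjusted p = 0.017) went the other way. CG6283, CG6295, CG8093, Cht10, Cht12, Cht4, Cht9, Muc14A and Peritrophin-15a were called in all 7 leave-one-out fits. CG6277 kept its call in 6 of them (highest adjusted p = 0.059, without Shn-RNAi library 1), Lip4 in 6 (0.078, without control library 1) and Muc18B in 6 (0.054, without Shn-RNAi library 2). Muc68E kept its call in 6 of the fits (highest adjusted p = 0.055, without control library 1), Hsl in 4 (0.092, without control library 1) and Peritrophin-15b in 4 (0.055, without control library 1). Cht12 had a log2 difference of 4.02 without Shn-RNAi library 2, Muc18B of 2.06 without Shn-RNAi library 2 or 3.80 without Shn-RNAi library 1 and Peritrophin-15b of -2.39 without Shn-RNAi library 2.

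**Figure D4:**
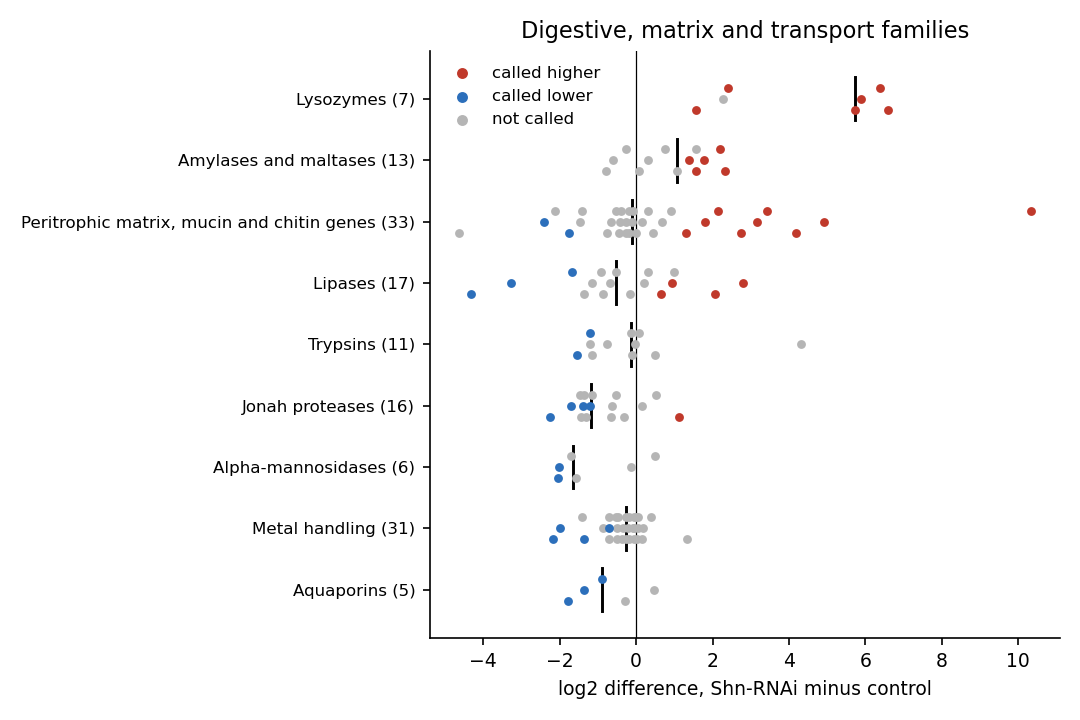
Log2 difference of Shn-RNAi minus control for each tested gene of 9 digestive, matrix and transport families (tested genes in brackets), 1 point per gene with the family median as a bar; points are spread vertically only for visibility. Red points are called higher, blue points called lower and grey points not called; lysozymes lie to the right of 0, and the called points of mannosidases, metal-handling genes and aquaporins to the left.

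Detoxification families had called members on both sides, as had all genes tested, with 6.06% higher and 3.56% lower. The shares of the UDP-glycosyltransferases lie near these, and those of the glutathione transferases little above. Of 70 cytochrome P450 genes 12 were higher and 5 lower (median 0.02), and in the leave-one-out fits 7 to 10 were higher and 2 to 8 lower, fewest without control library 1. Beside Cyp12d1-d, Cyp6a2 and Cyp6w1 (4.29, adjusted p = 0.0063), Cyp4e3 stood at 6.28 and 5.5 CPM in libraries labelled Shn-RNAi, against 0.716, 0.387 and 0.876 CPM in control (log2 difference 3.18, SE 0.32, adjusted p = 0.0016) and Cyp4ac3 at 33.8 and 55 CPM in the Shn-RNAi-labelled libraries and 13.2, 14.5 and 9.24 CPM in control (log2 difference 1.85, SE 0.25, adjusted p = 0.0052). Cyp28d1 was lower at 13 and 20 CPM in the Shn-RNAi-labelled libraries and 84, 79.3 and 81.1 CPM in control (log2 difference -2.31, SE 0.21, adjusted p = 0.0011), as was Cyp9f3 (-1.11, adjusted p = 0.011). The Cyp6 subfamily had 7 higher and 1 lower of 22, and Cyp4 4 and 1 of 20. Glutathione transferases had 3 higher and 2 lower of 32 tested (1 to 2 and 1 to 2 in the leave-one-out fits), with GstS1 lower at 31.9 and 28.7 CPM in the Shn-RNAi-labelled libraries and 73.6, 64.3 and 84.2 CPM in control (log2 difference -1.29, SE 0.16, adjusted p = 0.0041) and GstE9 lower (-1.02, adjusted p = 0.019). UDP-glycosyltransferases had 2 higher and 2 lower of 30 tested (1 to 2 and 1 to 2 in those fits), where Ugt86Dd was lower at 19.5 and 20.3 CPM in the Shn-RNAi-labelled libraries and 90, 72.8 and 74.5 CPM in control (log2 difference -1.99, SE 0.16, adjusted p = 0.00094) and its neighbour in name Ugt86Di higher (log2 difference 2.90, SE 0.32, adjusted p = 0.0024). Cyp12d1-d, Cyp28d1, Cyp4ac3, Cyp4e3, Cyp6a2, Cyp6w1, GstS1, Ugt86Dd and Ugt86Di were called in all 7 leave-one-out fits. Cyp9f3 kept its call in 6 of them (highest adjusted p = 0.051, without control library 1) and GstE9 in 3 (0.085, without control library 1). Cyp6w1 had a log2 difference of 3.39 without Shn-RNAi library 1.

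Antioxidant genes were called in 1 direction only, 0 higher and 5 lower of 22 (median -0.20). The superoxide dismutase gene of mitochondria, Sod2, stood at 70.7 and 82.3 CPM in libraries labelled Shn-RNAi, against 166, 134 and 176 CPM in control (log2 difference -1.05, SE 0.22, adjusted p = 0.023). Sod3 (-0.92, adjusted p = 0.031), the catalase gene Cat (-0.90, adjusted p = 0.045), the peroxiredoxin gene Jafrac1 (-0.89, adjusted p = 0.023) and Gclm (-1.12, adjusted p = 0.017) were lower as well. In the leave-one-out fits 0 to 4 members were called lower, fewest without control library 1, and the median ran from -0.36 without Shn-RNAi library 2 to -0.14 without control library 3. Sod2 kept its call in 3 of the 7 leave-one-out fits (highest adjusted p = 0.091, without Shn-RNAi library 1), Sod3 in 3 (0.11, without control library 1) and Gclm in 2 (0.068, without Shn-RNAi library 2). Cat kept its call in 1 of the fits (highest adjusted p = 0.16, without control library 1) and Jafrac1 in 1 (0.12, without control library 1).

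Called genes of metal handling and water transport were all lower. Of 31 metal-handling genes 4 were lower and 0 higher. Between 2 and 5 were lower in the leave-one-out fits, fewest without control library 1, and the median of -0.27 ran from -0.54 without Shn-RNAi library 1 to -0.08 without Shn-RNAi library 2. The metallothioneins, small proteins that bind copper and zinc, included MtnD at 27.4 and 61.6 CPM in libraries labelled Shn-RNAi, against 188, 144 and 194 CPM in control (log2 difference -1.98, SE 0.36, adjusted p = 0.015) and MtnE (-2.18, adjusted p = 0.016); MtnA, MtnB and MtnC were not called (-0.36, adjusted p = 0.54; -1.41, adjusted p = 0.35; -0.72, adjusted p = 0.17). The zinc transporter genes Zip42C.1, at 4.26 and 4.77 CPM in the Shn-RNAi-labelled libraries and 10.8, 12.8 and 11.5 CPM in control (log2 difference -1.37, SE 0.20, adjusted p = 0.0066), and Zip99C (-0.70, adjusted p = 0.028) were lower. Of 5 aquaporins, channels for water and glycerol, 3 were lower: Eglp2, at 43.7 and 47.8 CPM in the Shn-RNAi-labelled libraries and 155, 122 and 197 CPM in control (log2 difference -1.79, SE 0.23, adjusted p = 0.0045), Drip, at 28.9 and 21.6 CPM in the Shn-RNAi-labelled libraries and 61.7, 58.4 and 74 CPM in control (log2 difference -1.36, SE 0.19, adjusted p = 0.006), and Eglp4 (-0.88, adjusted p = 0.045). Among 27 ion channels and exchangers 3 were lower and 0 higher (1 to 4 lower in the leave-one-out fits, fewest without Shn-RNAi library 2), among them nrv3, a sodium pump subunit, at 8.57 and 6.82 CPM in the Shn-RNAi-labelled libraries and 30.3, 29.8 and 50.3 CPM in control (log2 difference -2.25, SE 0.32, adjusted p = 0.0062), and TrpA1, a cation channel for heat and irritants, at 6.56 and 2.57 CPM in the Shn-RNAi-labelled libraries and 19.2, 21.1 and 27.5 CPM in control (log2 difference -2.28, SE 0.36, adjusted p = 0.0095). The ABC transporter gene w, the eye-colour gene that also marks many transgenes, was higher at 177 and 419 CPM in the Shn-RNAi-labelled libraries and 53.4, 62.2 and 38.5 CPM in control (log2 difference 2.53, SE 0.35, adjusted p = 0.006). Since control came from a cross to the w1118 strain, the cross and the RNAi cannot be told apart for w. Drip, Eglp2, MtnD, TrpA1, Zip42C.1 and w were called in all 7 leave-one-out fits. nrv3 kept its call in 6 of them (highest adjusted p = 0.053, without Shn-RNAi library 2), MtnE in 4 (0.055, without Shn-RNAi puc library 2) and Eglp4 in 1 (0.14, without Shn-RNAi library 2). Zip99C kept its call in 1 of the fits (highest adjusted p = 0.13, without control library 1). MtnD had a log2 difference of -2.67 without Shn-RNAi library 2, MtnE of -3.06 without Shn-RNAi library 2 and TrpA1 of -3.13 without Shn-RNAi library 1. w had a log2 difference of 1.78 without Shn-RNAi library 2. Eglp4 (0.08) was not called after removal of the length trend (adjusted p in brackets).

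Nuclear genes of the respiratory chain held large shares of lower calls, above those of other lists with at least 10 tested members. Of 34 complex I genes 10 were lower and 0 higher (median -0.78), and 0 had a positive difference. Of 41 genes of complexes II to V 23 were lower and 0 higher (median -0.87), and 1 had a positive difference. The groups did not overlap, with control higher, for 31 and 38 of these genes, against 21.2% of all genes tested. The ATP synthase family had 10 of 13 lower, with differences from -1.17 to -0.77. Summed levels of complex I were 3386 and 4359 CPM in libraries labelled Shn-RNAi, against 6598, 5699 and 7175 CPM in control. Those of complexes II to V were 10129.9 and 10792 CPM in libraries labelled Shn-RNAi, against 19712, 17095 and 21924 CPM in control.

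The number of calls in these lists depended on the method. DESeq2 called 28 complex I genes and 36 of complexes II to V lower, the fit without the length trend 23 and 29, limma-voom 13 and 24, testing without a low-count filter 5 and 13, and the replicate block by column number 0 and 1. Upper-quartile scaling gave 15 for complex I. Single called genes of the chain, with differences near the list medians, are given as examples. The cytochrome c1 gene Cyt-c1 stood at 256 and 239.5 CPM in libraries labelled Shn-RNAi, against 442, 413 and 492 CPM in control (log2 difference -0.86, SE 0.19, adjusted p = 0.03). The complex IV gene COX7C had 166 and 201 CPM in the Shn-RNAi-labelled libraries and 365, 300.3 and 387 CPM in control (log2 difference -0.94, SE 0.20, adjusted p = 0.028), and the complex I gene ND-23 69.8 and 82.1 CPM in the Shn-RNAi-labelled libraries and 143, 124 and 164 CPM in control (log2 difference -0.92, SE 0.20, adjusted p = 0.03). Each of these is about as far apart from control as the list medians, and none was called in all 7 leave-one-out fits. Complex I members called lower in those fits numbered 0 to 7 and those of complexes II to V 0 to 17, with 0 of either without control library 1, although the medians stayed between -0.99 and -0.57 for complex I and between -1.02 and -0.78 for the others. Cyt-c1 kept its call in 3 of the 7 leave-one-out fits (highest adjusted p = 0.12, without control library 1), COX7C in 1 (0.12, without control library 1) and ND-23 in 1 (0.11, without control library 1).

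Central carbon metabolism had single genes against the trend. Of 19 citrate cycle genes 5 were lower and 1 higher (median -0.56), with 0 to 6 lower in the leave-one-out fits, 0 of them without control library 1. Among the lower were the malate dehydrogenase gene Mdh2 (-0.88, adjusted p = 0.026) and the fumarase gene Fum1 (-0.82, adjusted p = 0.028). The gene that rose, Pepck2, encodes a phosphoenolpyruvate carboxykinase and stood at 32.6 and 44.8 CPM in libraries labelled Shn-RNAi, against 8.52, 12.2 and 11.7 CPM in control (log2 difference 1.83, SE 0.20, adjusted p = 0.0025). In glycolysis and gluconeogenesis 1 of 15 was higher, the lactate dehydrogenase gene Ldh, at 135 and 189.9 CPM in the Shn-RNAi-labelled libraries and 62.3, 65.5 and 70.4 CPM in control (log2 difference 1.30, SE 0.22, adjusted p = 0.012), and 1 lower, fbp (-0.82, adjusted p = 0.04), which encodes fructose bisphosphatase. The glycolytic genes Pfk (-0.16, adjusted p = 0.58), Eno (-0.45, adjusted p = 0.12) and Pgi (-0.60, adjusted p = 0.11) were not called. Men-b, a malic enzyme that makes NADPH, stood at 73.7 and 74 CPM in the Shn-RNAi-labelled libraries and 24.8, 24.6 and 26 CPM in control (log2 difference 1.56, SE 0.13, adjusted p = 0.00095), while the pentose phosphate genes Taldo (-0.78, adjusted p = 0.033) and CG30499 (-0.65, adjusted p = 0.042) were lower. Men-b and Pepck2 were called in all 7 leave-one-out fits. Ldh kept its call in 5 of them (highest adjusted p = 0.057, without control library 1), Mdh2 in 3 (0.12, without control library 1) and Fum1 in 1 (0.11, without control library 1). Taldo kept its call in 1 of the fits (highest adjusted p = 0.14, without control library 1), CG30499 in 0 (0.16, without control library 1) and fbp in 0 (0.13, without Shn-RNAi library 1).

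Genes that make cytosolic acetyl-CoA, the starting unit of fat, were higher. ATPCL, the ATP citrate lyase gene, had 165 and 157 CPM in libraries labelled Shn-RNAi, against 75.3, 70.9 and 71.6 CPM in control (log2 difference 1.15, SE 0.16, adjusted p = 0.006), and AcCoAS, the acetyl-CoA synthase gene, 369 and 362 CPM in the Shn-RNAi-labelled libraries and 151, 140.0 and 178 CPM in control (log2 difference 1.23, SE 0.22, adjusted p = 0.014). The fatty acid elongase gene Baldspot rose as well (1.11, adjusted p = 0.011), and CG1942, related to the acyltransferases that make storage fat, fell (-1.51, adjusted p = 0.015), for 3 higher and 1 lower of 25 tested (1 to 3 and 0 to 3 in the leave-one-out fits). The later synthesis genes ACC (0.24, adjusted p = 0.59) and FASN1, at 219 and 85.6 CPM in the Shn-RNAi-labelled libraries and 99.4, 115 and 75.7 CPM in control (0.65, adjusted p = 0.35), were not called. Among the genes with the smallest p, Gfat1, the entry enzyme of the hexosamine pathway that supplies chitin and glycan precursors, stood at 121 and 153 CPM in the Shn-RNAi-labelled libraries and 31.9, 31 and 32.2 CPM in control (log2 difference 2.11, SE 0.16, adjusted p = 0.00075). ATPCL and Gfat1 were called in all 7 leave-one-out fits. AcCoAS kept its call in 5 of them (highest adjusted p = 0.071, without control library 1), Baldspot in 5 (0.052, without Shn-RNAi library 2) and CG1942 in 2 (0.061, without Shn-RNAi library 2).

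**Figure D5:**
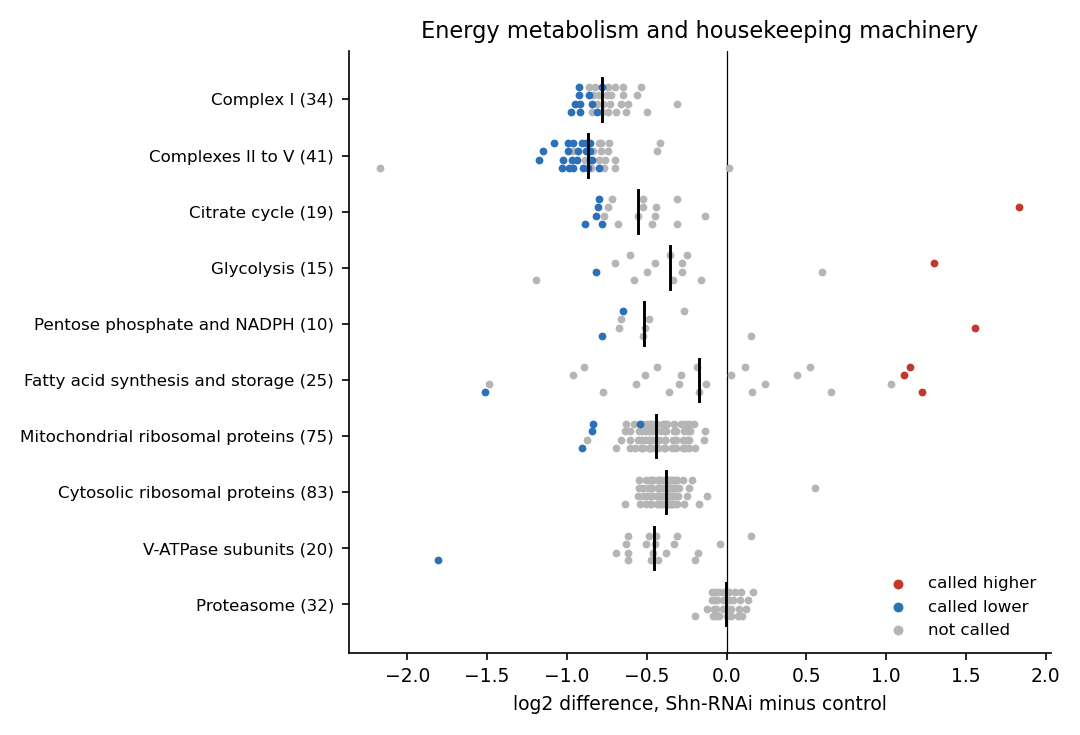
Log2 difference of Shn-RNAi minus control for each tested gene of 10 metabolic and housekeeping families (tested genes in brackets), 1 point per gene with the family median as a bar; points are spread vertically only for visibility. Red points are called higher, blue points called lower and grey points not called; both respiratory chain families lie almost wholly left of 0, and the proteasome genes cluster around 0.

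Ribosomal protein genes had small differences below 0, with few calls. Of 83 cytosolic ribosomal protein genes edgeR called 0, limma-voom 0 and DESeq2 12 lower, and 28 had an unadjusted p under 0.05. The median was -0.38, the difference was positive for 1, and the groups did not overlap, with control higher, for 65, against 21.2% of all genes tested. Their summed level was 61827 and 69036 CPM in libraries labelled Shn-RNAi, against 88835, 77249 and 92316 CPM in control. With the transcript-length trend taken out the median was -0.19. Mitochondrial ribosomal proteins had 4 of 75 lower, mRpS31 (-0.84, adjusted p = 0.0096), mRpL4 (-0.84, adjusted p = 0.011), mRpL53 (-0.91, adjusted p = 0.012) and mRpL37 (-0.54, adjusted p = 0.041), and 0 to 14 in the leave-one-out fits, fewest without control library 1 and most without Shn-RNAi library 2. The difference was positive for 0 of the 75, the groups did not overlap for 40 with control higher, and the median of -0.44 ran from -0.79 without Shn-RNAi library 2 to -0.19 without Shn-RNAi library 1 and was -0.29 with the length trend taken out. The 32 proteasome genes had a median of 0.00 with 16 on each side of 0, ran in the median from -0.34 without Shn-RNAi library 2 to 0.26 without Shn-RNAi library 1, and differed by 0.57 in the median between Shn-RNAi library 2 and library 1. Medians were -0.20 for 28 endoplasmic reticulum chaperone genes, -0.04 for 20 vesicle coat genes, 0.16 for 36 vacuolar sorting genes and -0.08 for 36 aminoacyl-tRNA synthetases. Of 33 heat shock and co-chaperone genes 1 was higher, stv (0.96, adjusted p = 0.018), and 1 lower, Hsc70-2 (-1.19, adjusted p = 0.028). mRpL4 kept its call in 6 of the 7 leave-one-out fits (highest adjusted p = 0.059, without control library 1), mRpL53 in 6 (0.051, without control library 1) and mRpS31 in 6 (0.063, without control library 1). stv kept its call in 2 of the fits (highest adjusted p = 0.085, without control library 1), Hsc70-2 in 1 (0.1, without control library 1) and mRpL37 in 1 (0.2, without control library 1). mRpL37 (0.11) was not called after removal of the length trend (adjusted p in brackets).

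Division genes stood at low levels, and those called were higher. Over all genes tested 6.06% were called higher. Of 45 mitosis genes 7 were higher and 0 lower (median 0.90), and the difference was positive for 44. The centrosomal gene cnn stood at 25.7 and 24 CPM in libraries labelled Shn-RNAi, against 5.09, 6.92 and 2.47 CPM in control (log2 difference 2.34, SE 0.33, adjusted p = 0.006). The centromere gene cal1 (0.95, adjusted p = 0.011), the kinetochore gene Nuf2 (1.37, adjusted p = 0.042) and the spindle-pole gene asp (1.55, adjusted p = 0.047) were higher too. The cyclin gene CycB had 3.47 and 2.72 CPM in the Shn-RNAi-labelled libraries and 1.86, 1.72 and 0.557 CPM in control (1.15, adjusted p = 0.15) and the kinase gene polo 3.75 and 3.74 CPM in the Shn-RNAi-labelled libraries and 1.93, 3.04 and 0.876 CPM in control (0.91, adjusted p = 0.22), and neither was called. Of 43 replication genes 2 were higher, Psf1 (1.58, adjusted p = 0.016) and RPA2 (1.01, adjusted p = 0.044), a share not above that of all genes tested. The median of the replication list was 0.44, and the difference was positive for 38 of the 43. The groups did not overlap for 22 with Shn-RNAi higher and 1 with control higher, against 22.1% and 21.2% of all genes tested. At an unadjusted edgeR p under 0.05, 10 replication genes were higher and 0 lower. PCNA had 8.07 and 17.2 CPM in the Shn-RNAi-labelled libraries and 6.3, 8.08 and 3.34 CPM in control (1.08, adjusted p = 0.14). Mitosis members called in the leave-one-out fits numbered 1 to 5, and replication members 0 to 4. cnn was called in all 7 leave-one-out fits. cal1 kept its call in 6 of them (highest adjusted p = 0.052, without control library 1), Psf1 in 4 (0.053, without Shn-RNAi puc library 2) and RPA2 in 2 (0.13, without control library 3). asp kept its call in 1 of the fits (highest adjusted p = 0.21, without Shn-RNAi library 1) and Nuf2 in 0 (0.13, without control library 1). Psf1 had a log2 difference of 0.99 without Shn-RNAi library 2. asp (0.053) was not called after removal of the length trend (adjusted p in brackets).

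Among genes of small RNA silencing, a list that joins the microRNA, siRNA and piRNA machineries, 5 of 18 were higher and 0 lower. The median was 0.38, or 0.11 with the length trend taken out. All 5 belong to the piRNA pathway, which silences transposons and is best known from the germline, and all stood at low levels. The broadly used AGO1 (0.31, adjusted p = 0.31), AGO2 (0.36, adjusted p = 0.33), Dcr-1 (0.41, adjusted p = 0.3) and Dcr-2 (0.62, adjusted p = 0.079) and the piRNA genes AGO3 (0.84, adjusted p = 0.17) and armi (0.25, adjusted p = 0.65) were not called. The Tudor-domain gene tej stood at 2.91 and 3.3 CPM in libraries labelled Shn-RNAi, against 0.215, 0.332 and 0.0796 CPM in control (log2 difference 3.77, SE 0.45, adjusted p = 0.0032), and the helicase gene spn-E at 1.74 and 1.91 CPM in the Shn-RNAi-labelled libraries and 0, 0.277 and 0.0796 CPM in control (log2 difference 3.71, SE 0.74, adjusted p = 0.021). Piwi itself, gene piwi (1.99, adjusted p = 0.033), and vret (1.82, adjusted p = 0.042) were higher, as was krimp, with 0.448 and 0.807 CPM in libraries labelled Shn-RNAi and 2 counts over the control group, a ratio of 13.5 (95% counting interval 3.25 to 119, exact). Among 5 germline markers counted, 1 passed the low-count filter, and the markers summed to 1.63 and 2.49 CPM in libraries labelled Shn-RNAi, against 1.93, 1.94 and 1.59 CPM in control. In the leave-one-out fits 1 to 2 of the list were called, fewest without control library 1. tej was called in all 7 leave-one-out fits. spn-E kept its call in 1 of them (highest adjusted p = 0.095, without Shn-RNAi library 2), krimp in 0 (0.13, without Shn-RNAi library 2) and piwi in 0 (0.11, without Shn-RNAi library 1). vret kept its call in 0 of the fits (highest adjusted p = 0.14, without Shn-RNAi library 1). spn-E had a log2 difference of 5.29 without control library 2.

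Many of the clearest differences lay outside the lists. The gene hdly stood at 271 and 550.1 CPM in libraries labelled Shn-RNAi, against 15.9, 16.3 and 14.3 CPM in control (log2 difference 4.73, SE 0.30, adjusted p = 0.00042). The gene smal, related to discoidin domain receptors for collagen, had 19 and 19.4 CPM in the Shn-RNAi-labelled libraries and 1.15, 1.83 and 1.27 CPM in control (log2 difference 3.73, SE 0.24, adjusted p = 0.00042). The other discoidin receptor gene, Ddr, named after its values were seen, had 59 counts over the libraries labelled Shn-RNAi and 1 over control, a scaled ratio of 83.6 (95% counting interval 14.4 to 3357, exact). The cell-surface leucine-rich-repeat gene trn had 13.4 and 16.4 CPM in the Shn-RNAi-labelled libraries and 3.15, 3.38 and 3.27 CPM in control (log2 difference 2.19, SE 0.17, adjusted p = 0.00083). CG14219 (log2 difference 3.22, SE 0.23, adjusted p = 0.00058), CG32284 (log2 difference 4.91, SE 0.53, adjusted p = 0.0022) and CG15605 (log2 difference 5.55, SE 0.78, adjusted p = 0.006) were also among those that rose. Several abundant uncharacterised genes were higher in both libraries labelled Shn-RNAi and highest in library 2, such as CG13323, at 2243 and 7454 CPM in the Shn-RNAi-labelled libraries and 833, 751 and 618 CPM in control (log2 difference 2.72, SE 0.44, adjusted p = 0.0099), CG15043, at 4513 and 7602 CPM in the Shn-RNAi-labelled libraries and 1488, 1465 and 829 CPM in control (log2 difference 2.26, SE 0.32, adjusted p = 0.0066), and CG10910, at 3894 and 8969 CPM in the Shn-RNAi-labelled libraries and 1789, 1572 and 1423 CPM in control (log2 difference 2.01, SE 0.33, adjusted p = 0.011). CG10910, CG13323, CG14219, CG15043, CG15605, CG32284, hdly, smal and trn were called in all 7 leave-one-out fits. CG10910 had a log2 difference of 1.29 without Shn-RNAi library 2, CG13323 of 1.62 without Shn-RNAi library 2 or 3.35 without Shn-RNAi library 1 and CG15605 of 4.17 without Shn-RNAi library 2 or 6.49 without control library 2. hdly had a log2 difference of 4.13 without Shn-RNAi library 2.

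Lower genes outside the lists included several with libraries of a group close together. Ass, the argininosuccinate synthase gene of arginine metabolism, stood at 89.6 and 83.6 CPM in libraries labelled Shn-RNAi, against 308, 284 and 321 CPM in control (log2 difference -1.81, SE 0.17, adjusted p = 0.0013). CG12560 had 11.8 and 12.4 CPM in the Shn-RNAi-labelled libraries and 36, 33.3 and 33.8 CPM in control (log2 difference -1.50, SE 0.13, adjusted p = 0.001), and Ady43A, related to adenosine kinases, 7.06 and 5.94 CPM in the Shn-RNAi-labelled libraries and 23.2, 24.3 and 24.2 CPM in control (log2 difference -1.87, SE 0.18, adjusted p = 0.0013). In each of these 3 the groups lay well apart. CG4830 (log2 difference -2.43, SE 0.43, adjusted p = 0.013), CG2120 (log2 difference -2.23, SE 0.30, adjusted p = 0.0054), CG32407 (log2 difference -2.24, SE 0.31, adjusted p = 0.006) and CG13160 (log2 difference -2.35, SE 0.35, adjusted p = 0.0078) fell further. The abundant gene Pebp1, of the phosphatidylethanolamine-binding family, had 2669 and 3909 CPM in the Shn-RNAi-labelled libraries and 8503, 6249 and 8837 CPM in control (log2 difference -1.26, SE 0.27, adjusted p = 0.029), and the abundant gene CG8560 562 and 807 CPM in the Shn-RNAi-labelled libraries and 2055, 1807 and 2649.9 CPM in control (log2 difference -1.66, SE 0.35, adjusted p = 0.025). Ady43A, Ass, CG12560, CG13160, CG2120, CG32407 and CG4830 were called in all 7 leave-one-out fits. CG8560 kept its call in 3 of them (highest adjusted p = 0.1, without Shn-RNAi library 1) and Pebp1 in 2 (0.12, without control library 1). CG4830 had a log2 difference of -3.28 without Shn-RNAi library 1.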

How the data were processed

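RNA was extracted from dissected midguts without crop, Malpighian tubules or hindgut, and libraries were made with an Illumina TruSeq RNA kit, per the labels' protocols. The authors deposited whole-number counts per gene for 7 libraries, unscaled. Salmon 1.0.0, DESeq2 and the build BDGP6 are named, without roles, per the submitters' processing notes. Column names gave the group but not the sample, so libraries are numbered as in the table. From these counts, 9076 of 10902 genes passed filterByExpr by group and were fitted in edgeR 4.0.16 (R 4.3.3) with TMM scaling and all 7 libraries in 3 groups, leaving 4 residual degrees of freedom; the common biological coefficient of variation was 21.6%. The contrast was Shn-RNAi minus control, two-sided, with Benjamini-Hochberg adjustment over the 9076 genes. Every adjusted p is from this test unless another is named. The SE is the log2 difference divided by the square root of F and is approximate. Scripts were tested on simulated data.

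Gene lists and the choice of comparison were made with earlier results of these data known, so no list is independent evidence of its direction. Named genes were shn, puc, esg and Dl; per direction, the 20 called genes with the largest change (at least 5 CPM in the higher group, no overlap), the 10 with the smallest p and the 10 with the highest level; and per list the 5 called members per direction with the smallest p and every tested member of lists of up to 15. Ligands, receptors and central enzymes that were not called are given by value. An Ensembl annotation of build BDGP6.54 held 99.85% of the gene symbols. Near-identical genes may share reads, as may overlapping or antisense genes, since no source used here states the use of strand. Counting intervals and the floor of 3 counts cover counting error only. Deviations of same-numbered control and Shn-RNAi libraries had correlations of -0.13 and -0.03, which with 2 libraries labelled Shn-RNAi are not independent. The labels state no pairing, so numbers were not treated as pairs in the main fit. Alternatives were DESeq2 1.42.0, limma-voom (limma 3.58.1), scaling by RLE or by upper quartiles, omission of the 50 top genes by level, testing without any low-count filter or with a minimum of 1 CPM in 2 libraries, a fit of the compared groups alone, a replicate block, the transcript-length trend of each library taken out, and each library omitted in turn.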

Additional observations from a re-analysis of the deposited data

How the results depend on the processing

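The main counts, 550 genes higher and 323 lower, were within 1.5 times under most settings. DESeq2 called 575 genes lower and 722 higher, and 853 of the 873 main calls were among them. With each library omitted in turn, the higher genes ranged between 221 and 534 and the lower between 64 and 301; control library 1 gave both lowest counts and Shn-RNAi library 1 both highest. A replicate block by column number gave 230 higher and 91 lower genes. Whether same-numbered libraries share a batch is not known from the labels. Deviations of the 2 libraries labelled Shn-RNAi from their mean mirror each other, so the correlations between same-numbered libraries cannot settle it. The log2 change of esg, 0.07, turned to -0.0232 with the block and ran between -0.14 and 0.25 with a library omitted, and was called in none of these. None of the 873 calls changed sign in any of the 17 alternative settings. The groups did not overlap for any called gene, so omission of a library could hardly turn a sign. Of 271 called named genes, between 223 and 267 kept their call under other tools, scalings, filters or the length trend, 132 with the block, and between 124 and 212 with a library omitted. The cause of these losses was not tested. With 2 libraries labelled Shn-RNAi and 4 residual degrees of freedom, small differences and genes of low count are hard to resolve, and no removal of other tissue was tested.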
